A study of Mus musculus with 6 samples.

Results

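RNA-Seq counts of 6 genes known from osteocytes and from the hormonal control of phosphate, Phex, Ostn, Sost, Fgf23, Fam20c and Pdpn, were compared between control and Foxc1;Foxc2 mutant rib cages. The genes were matched by symbol to the gene table, so these are 6 of its 55487 gene IDs, and all 6 were among the 26596 genes with enough counts to be tested. The libraries came from mouse embryos at 16.5 dpc, with 1 embryo in each. The control group held embryos E420, E434 and E435, which are labelled wild type. The study describes control embryos without the Col2-cre transgene for its skeletal preparations, and does not state the genotype of these 3 further. The mutant group held embryos E423, E433 and E440, labelled Col2-cre;Foxc1-/-;Foxc2-/-. They came from a cross of Col2-cre;Foxc1;Foxc2 heterozygotes with mice homozygous for floxed Foxc1 and Foxc2 on a mixed C57B6 and Black Swiss background. In the hind limb of younger reporter embryos, the study found Col2-cre activity in perichondrium, growth plate chondrocytes and the primary ossification center. The RNA, in contrast, was taken from the whole rib cage. The labels describe separate embryos but not their litters. The methods of the study state that littermates were compared, without saying which of these embryos shared a litter.

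Osteocytes are bone cells that arise when osteoblasts become enclosed in the matrix they have laid down. They carry out much of the hormonal output of bone: FGF23 lowers phosphate by acting on the kidney, and the membrane protease PHEX restrains FGF23, so that loss of PHEX leads to phosphate wasting and poorly mineralized bone. Sclerostin, encoded by Sost, blocks Wnt signaling through LRP co-receptors and so limits bone formation. Osteocrin, encoded by Ostn, is a peptide of young osteoblasts and osteocytes that binds the natriuretic peptide clearance receptor. FAM20C is a kinase of the secretory pathway that phosphorylates bone matrix proteins and FGF23, and podoplanin, encoded by Pdpn, is a membrane protein of early osteocytes that lymphatic endothelium and other cells also make.

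The libraries held between 37853988 and 47794799 counts, so that 1 count equaled between 0.0209 and 0.0264 CPM (counts scaled to a common library size) before TMM scaling. Foxc1 stood at 23.1, 36.9 and 24.2 CPM in the controls and at 3.56, 9.60 and 3.51 CPM in the mutants, with values here and below in the order in which the embryos of a group were named above. Foxc2 stood at 1.98, 4.83 and 3.22 CPM in the controls and at 0.649, 1.14 and 0.737 CPM in the mutants. Both were therefore lower in each mutant, with log2 fold changes of -2.34 and -1.99 (adjusted p = 0.235 and 0.239 from edgeR, and 9.6e-07 and 0.000207 from DESeq2). Within each group 1 library stood apart from a close pair, as was seen in the cartilage genes: the summed level of 12 chondrocyte markers was 23208 CPM in control E434 against 1695 and 1593 CPM in the other controls, and 8523 CPM in mutant E433 against 611 and 582 CPM in the other mutants. The SD over genes of the log2 ratio was 0.156 between controls E420 and E435 and 0.135 between mutants E423 and E440, against 0.493 to 1.58 for the other pairs. On RSEM fragments, the chi-square per gene of these close pairs was 5.42 and 2.27, above the value expected from sampling noise. That alone does not show that the libraries of a pair are independent. They were kept as separate samples because the labels name separate embryos. For each of the 6 genes a value without 1 or both of the libraries that stand apart is given below.

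Phex and Ostn fell in the mutants, and the other 4 genes did not pass the test. Phex was 3.20-fold lower and Ostn 6.39-fold lower than in controls. Sost was 2.50-fold lower on average with all mutants below all controls, but missed the adjusted limit. Fgf23 was barely detected, and the groups overlapped for Fam20c and Pdpn. A gene was called when its adjusted p was under 0.1 and its log2 fold change (mutant over control) was at least 1 either way, by edgeR's quasi-likelihood test with Benjamini-Hochberg adjustment over all genes tested. By that rule 2 of the 6 genes were called lower and 0 higher, where 0.0301% of all genes tested were called lower and 0.0338% higher. All 3 mutants lay below all 3 controls in 3 of the 6 genes, against 8.21% of all genes tested, and above them in 0 of 6, against 6.81%. An unadjusted p under 0.05 was reached by 3 of the 6, each lower in mutants, against 4.7% of all genes lower and 5.9% higher. The median log2 fold change of the 6 genes was -0.78, with 5 of 6 below 0 against 48.8% of all genes, beside a median of 0.01 over all genes tested.

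**Figure D1:**
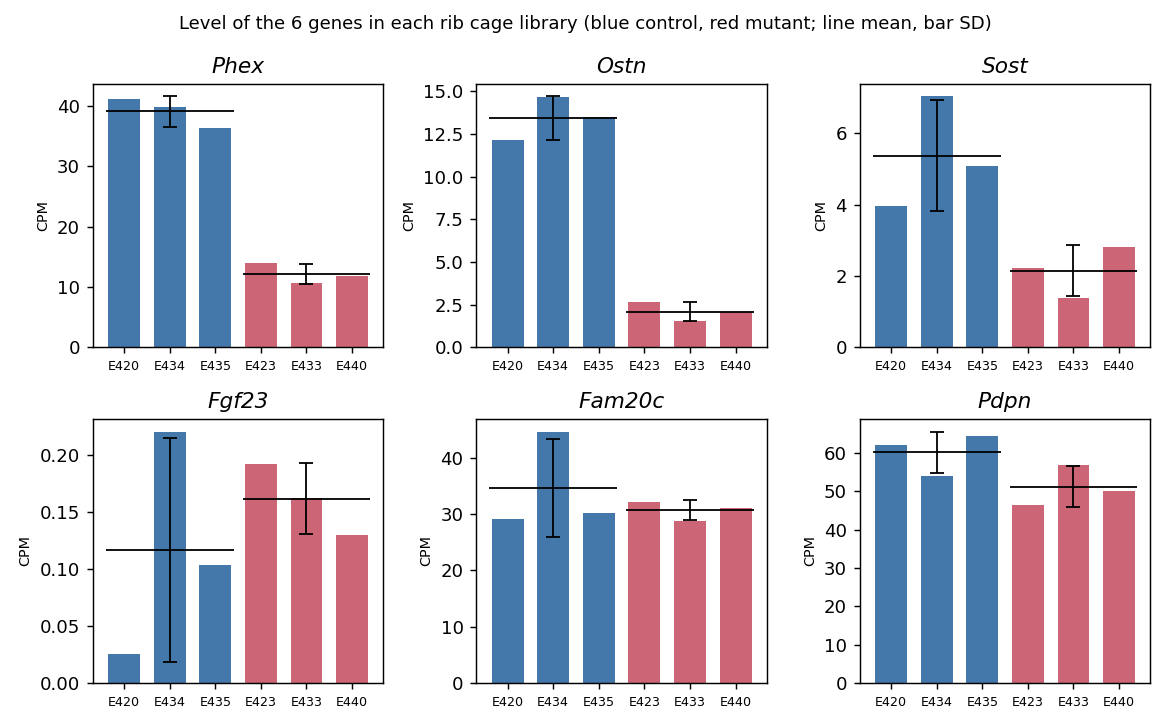
Level of each of the 6 genes in CPM (vertical axes from 0, scaled per gene) in the 3 control libraries (blue) and the 3 mutant libraries (red), with the group mean as a line and the SD as an error bar. The mutant bars of Phex, Ostn and Sost all lie below the lowest control, while those of Fgf23, Fam20c and Pdpn overlap the control range.

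Phex (ENSMUSG00000057457.11) lies on the minus strand of chromosome X from 157162075 to 157415312 in GRCm38. It stood at 41.2, 39.9 and 36.3 CPM in controls, from 1618, 1808 and 1762 counts. In mutants it stood at 13.998, 10.8 and 11.9 CPM, from 582, 464 and 548 counts. The groups were well apart, with the lowest control 2.59 times the highest mutant, and the libraries within a group lay close together although their chondrocyte sums differed widely. The means were 39.1 ± 2.52 and 12.2 ± 1.64 CPM (SD, n = 3 each), and the log2 fold change was -1.68 (standard error 0.124, 95% interval -1.98 to -1.38, adjusted p = 0.0775, edgeR). DESeq2 gave -1.67 with an adjusted p of 3.7e-27. In bulk RNA, fewer cells of a type and less RNA per cell cannot be told apart, here and for each gene below. Phex is X-linked, and 1 library differed in sex-linked RNA: Xist, expressed from the inactive X chromosome, was at 1127 CPM in E433, while no other library exceeded 3.11 CPM. Without E433, the log2 fold change of Phex was -1.59 (adjusted p = 0.00334, edgeR). That fit kept only the close pair E423 and E440 as mutants, and it called 1087 of 25844 genes. Its p-value therefore rests in part on the small spread within that pair.

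Ostn (ENSMUSG00000052276.8) lies on the plus strand of chromosome 16 from 27307489 to 27351212. It stood at 12.1, 14.7 and 13.5 CPM in controls, from 477, 666 and 655 counts. In mutants it stood at 2.67, 1.55 and 2.08 CPM, from 111, 67 and 96 counts. The groups were further apart than for Phex, with the lowest control at 4.55 times the highest mutant. The means were 13.4 ± 1.28 and 2.102 ± 0.558 CPM (SD, n = 3 each), so the mutants kept 15.6% of the control level, against 31.2% for Phex. The log2 fold change was -2.68 (standard error 0.223, 95% interval -3.21 to -2.14, adjusted p = 0.0775, edgeR). Of the 1423 exonic bases of Ostn, 184 (12.9%) are shared with exons of Gm32312, an antisense gene, and since strand was not used, reads there were assigned to neither gene. Gm32312 itself had between 0 and 15 counts in any library. Ostn had 1.55 to 1.71 counted reads per RSEM fragment, below the 1.95 to 1.96 of the libraries as a whole, and on RSEM expected counts its log2 fold change was -2.72 (adjusted p = 0.0660, edgeR).

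Both calls depended on which library was left out. Without any one of E420, E435, E423 or E440, edgeR called neither gene, and no other gene either, at adjusted p values of 0.296 to 0.471, although the log2 fold changes stayed between -1.79 and -1.64 for Phex and between -2.88 and -2.67 for Ostn. In those fits 1450 to 1698 genes passed an unadjusted p of 0.05. With E434 and E433 both left out, the log2 fold changes were -1.58 for Phex (adjusted p = 4.3e-12, edgeR) and -2.44 for Ostn (adjusted p = 9.7e-12, edgeR). That fit held only the close pairs, E420 with E435 and E423 with E440. Its p-values therefore measure the small spread within those pairs, and it called 2066 of 25045 genes.

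Sost (ENSMUSG00000001494.6) lies on the minus strand of chromosome 11 from 101962458 to 101967015. It stood at 3.97, 7.04 and 5.09 CPM in controls and at 2.24, 1.39 and 2.82 CPM in mutants. The groups did not overlap, but the gap was small: the lowest control was 1.41 times the highest mutant, and the libraries that stand apart, E434 and E433, were the highest control and the lowest mutant. The means were 5.37 ± 1.55 and 2.15 ± 0.717 CPM (SD, n = 3 each). The log2 fold change was -1.32 (standard error 0.323, 95% interval -2.09 to -0.54) with an unadjusted p of 0.00538 and an adjusted p of 0.346 (edgeR), so Sost was not called. DESeq2 did call it, at a log2 fold change of -1.31 and an adjusted p of 0.00619, and so did edgeR without E433 (-1.08, adjusted p = 0.0891). In the fit without E433 the mutants were a close pair alone, so its p-value rests in part on the spread within that pair. DESeq2 called 3 of the 6 genes lower and 0 higher, against 0.459% and 1.33% of all genes tested. With E434 and E433 both left out, the log2 fold change of Sost was -0.84, short of the limit on size (adjusted p = 0.000812, edgeR). There too the p-value measures only the spread within the close pairs.

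Fgf23 (ENSMUSG00000000182.9) lies on the plus strand of chromosome 6 from 127072902 to 127081408. It had 1, 10 and 5 counts in controls and 8, 7 and 6 counts in mutants, at most 0.221 CPM in any library. The groups overlapped, and the log2 fold change of 0.44 had a 95% interval from -1.22 to 2.099 (adjusted p = 0.848, edgeR). At these counts the estimate was too imprecise to tell a rise from a fall, and edgeR's filterByExpr removed the gene. Without E434 the log2 fold change was 1.24 (adjusted p = 0.587, edgeR), and with E434 and E433 both left out it was 1.22 (adjusted p = 0.356, edgeR).

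Fam20c (ENSMUSG00000025854.15) lies on the plus strand of chromosome 5 from 138754514 to 138810077. It stood at 29.0, 44.6 and 30.2 CPM in controls and at 32.2, 28.8 and 31.1 CPM in mutants. Control E434 was high and the other 5 libraries lay within a narrow range. The means were 34.6 ± 8.68 and 30.7 ± 1.73 CPM (SD, n = 3 each), with a log2 fold change of -0.17 (95% interval -0.60 to 0.25, adjusted p = 0.756, edgeR). Without E434 the value was 0.05, in the other direction.

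Pdpn (ENSMUSG00000028583.14) lies on the minus strand of chromosome 4 from 143267431 to 143299564. It stood at 62.0, 54.0 and 64.4 CPM in controls and at 46.4, 57.0 and 50.2 CPM in mutants. The groups overlapped, since mutant E433 was above control E434, the libraries with the highest chondrocyte sums of their groups. The means were 60.2 ± 5.43 and 51.2 ± 5.38 CPM (SD, n = 3 each), and the log2 fold change was -0.23 (95% interval -0.50 to 0.03, adjusted p = 0.513, edgeR). With E434 and E433 both left out it was -0.39 (adjusted p = 2.0e-05, edgeR), short of the limit on size. That p-value again measures only the spread within the close pairs.

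Levels of different genes can be compared only per length, for which the deposited TPM (a transcript level scaled by length and library size) was used. In controls the order of mean TPM was Pdpn (47.4), Fam20c (18.4), Ostn (18.2), Phex (10.7), Sost (3.74) and Fgf23 (0.0933). Fam20c and Ostn were neighbors that did not differ beyond their spread, at 14.04 to 25.6 and 16.8 to 20.8 TPM. In mutants the order was Pdpn (40.8), Fam20c (14.4), Phex (3.07), Ostn (2.65), Sost (1.47) and Fgf23 (0.123). Ostn was above Phex in all 3 controls and above it in mutant E423 alone among the mutants, and in the mutants their ranges of 2.29 to 3.15 and 2.78 to 3.60 TPM overlapped.

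**Figure D2:**
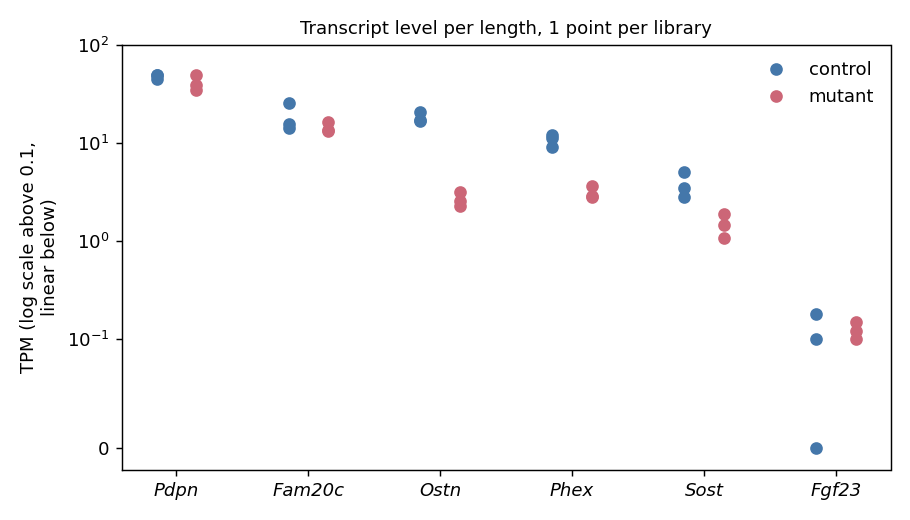
TPM of each gene in each library (log scale above 0.1 and linear below), with controls in blue and mutants in red. Pdpn is highest in both groups, Ostn lies between Fam20c and Phex in controls at a mean of 18.2 TPM, and in mutants it lies at 2.65 TPM, level with Phex.

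Because osteoblast genes were also lower in the mutants, the 6 genes were set against a list of 14 osteoblast genes, among them the transcription factors Runx2 and Sp7 and the matrix genes Col1a1, Ibsp and Spp1. In 12 of the 14 all mutants lay below all controls, with a median log2 fold change of -0.96, and edgeR called 0 of them while DESeq2 called 6. At an unadjusted p under 0.05, 12 of the 14 passed in edgeR. The summed level of the list was between 23220 and 33395 CPM in controls and between 16747 and 17950 CPM in mutants, and 0 of its genes were at 0 in any library.

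**Figure D3:**
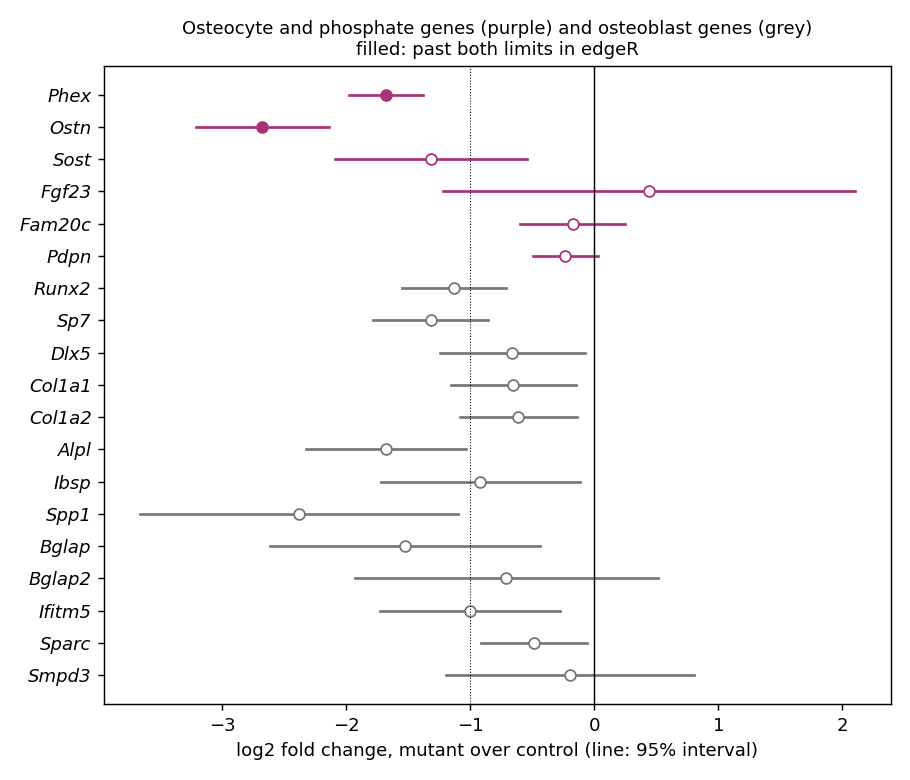
Log2 fold change (mutant over control) with its 95% interval for the 6 genes (purple) and the osteoblast genes named on the axis (grey), where filled points passed both limits in edgeR and the dotted line marks -1. Phex at -1.68 and Ostn at -2.68 are the only filled points. Their intervals are narrower than those of osteoblast genes of similar size such as Alpl and Spp1.

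For each library, the mean log2 CPM of the osteoblast list was subtracted from the log2 CPM of the gene, and the groups were compared by a 2-sided exact permutation test, which with 3 libraries against 3 cannot go below p = 0.1. The test was run for 5 genes, Fgf23 being too low, and p was adjusted over them. Ostn relative to the list stood at -3.21, -3.13 and -3.02 in controls and at -4.59, -4.47 and -4.93 in mutants. Relative to the osteoblast genes as a whole, Ostn was therefore lower in all 3 mutants than in any control, with a difference of -1.54 on the log2 scale (exact permutation p = 0.1, adjusted p = 0.125). Phex relative to the list differed by -0.55 (exact permutation p = 0.1, adjusted p = 0.125), again with all mutants below all controls, but mutant E433 at -1.72 was near control E434 at -1.69. Sost relative to the list differed by -0.18, less than the spread between libraries (exact permutation p = 0.4, adjusted p = 0.4). Fam20c and Pdpn relative to the list differed by 0.99 and 0.90 (exact permutation p = 0.1 and adjusted p = 0.125 for each), with all mutants above all controls. The list mean itself was 6.78 to 7.01 in controls and 5.15 to 6.03 in mutants. A gene that changed little would therefore also lie higher relative to it, and these values do not show a rise of either gene. The difference of Pdpn was 0.53 without E433, and that of Fam20c 0.74. In a fit with the level of the osteoblast list as a covariate, the log2 fold changes were -1.34 for Phex (adjusted p = 0.0505, edgeR), -1.90 for Ostn (adjusted p = 0.0539, edgeR) and -0.11 for Sost (adjusted p = 0.920, edgeR). In the same fit Fam20c had 0.18 (adjusted p = 0.819, edgeR) and Pdpn -0.60 (adjusted p = 0.128, edgeR), so that Pdpn was on the opposite side of 0 from its level relative to the list. Because the list level did not overlap between the groups, that fit separates group from list level poorly. It called 1234 genes in all, against 8 lower and 9 higher without the covariate.

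**Figure D4:**
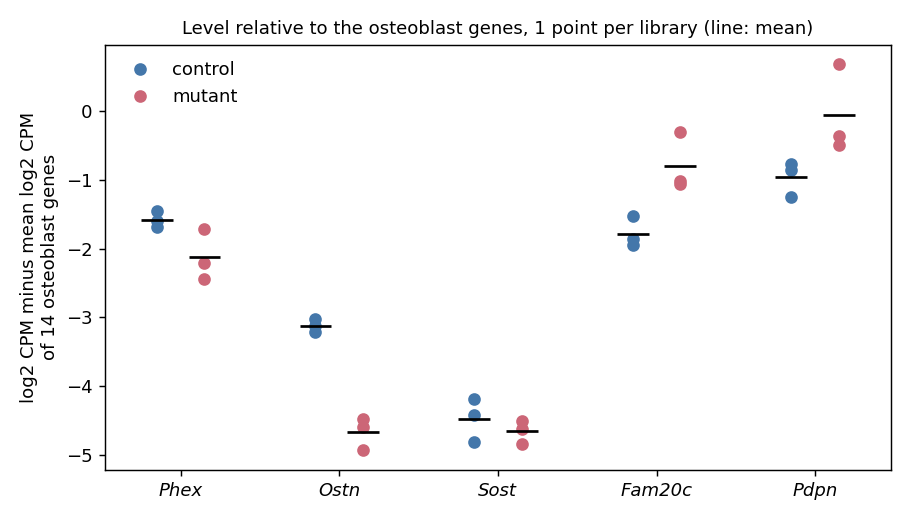
Log2 CPM of 5 of the genes minus the mean log2 CPM of 14 osteoblast genes, 1 point per library with the group mean as a line (controls blue, mutants red). Ostn shows the widest gap, a difference of -1.54, while the Sost points of both groups overlap. Those of Fam20c and Pdpn lie higher in mutants (0.99 and 0.90, or 0.74 and 0.53 without E433) relative to a list that was itself lower in mutants.

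Set against each other, the log2 ratio of Ostn to Phex was -1.76, -1.44 and -1.42 in controls and -2.37, -2.76 and -2.49 in mutants. The ratio was thus lower in every mutant, with a difference of -0.998 on the log2 scale (exact permutation p = 0.1, adjusted p = 0.15 over 3 pairs). The ratio of Ostn to Sost differed by -1.36 with the groups apart (exact permutation p = 0.1, adjusted p = 0.15), and that of Phex to Sost by -0.36 with the groups overlapping (exact permutation p = 0.5, adjusted p = 0.5). These 3 pairs were chosen after the values were seen.

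Of the markers of other cells, those of osteoclasts moved with the groups. All 8 osteoclast genes were lower in every mutant than in every control, against 8.21% of all genes tested. Their summed level was 599 to 623 CPM in controls and 120 to 298 CPM in mutants, lowest in E433. The median log2 fold change was -1.11, with 3 genes at an unadjusted p under 0.05 and 1 called lower in edgeR. The gap could be small: Acp5 stood at 70.9, 82.0 and 71.8 CPM in controls and at 69.5, 9.44 and 66.9 CPM in mutants. The called gene was Ctsk, which encodes the bone-resorbing protease cathepsin K. Ctsk fell from 229, 161 and 230 CPM in the controls to 84.0, 86.8 and 87.7 CPM in the mutants (log2 fold change -1.26, adjusted p = 0.0999, edgeR). Its mutant values lay close together, whereas Acp5 and the sum of the list were lowest in E433. For the other cell types the sums overlapped between the groups. Those of 8 skeletal muscle genes were 13377 to 21854 CPM in controls and 16990 to 30373 CPM in mutants, and those of 8 keratinocyte genes 20.3 to 6421 and 3322 to 27744 CPM. For 6 lymphatic endothelial genes, cells in which podoplanin is also known, the sums were 95.1 to 108 CPM in controls and 77.1 to 97.6 CPM in mutants, with a median log2 fold change of 0.01. Those of 6 mesothelial genes were 44.4 to 222 and 73.3 to 124 CPM, and those of 8 hepatocyte genes 30.5 to 50.5 and 32.4 to 635 CPM, the highest being mutant E433. The median log2 fold change was 0.63 for muscle, 1.37 for keratinocyte, -0.50 for mesothelial and 3.11 for hepatocyte genes. EdgeR called 0 of these, with 3 muscle and 3 hepatocyte genes at an unadjusted p under 0.05. DESeq2 called 1 hepatocyte gene higher. The single marker listed at 0 in these lists was a keratinocyte gene in E434, and the part of these cells in the levels of the 6 genes was not tested. With the level of the chondrocyte list as a covariate, the log2 fold changes were -1.72 for Phex and -2.73 for Ostn, both called by edgeR (adjusted p = 0.00535 and 0.00895). That level, in mean log2 CPM, was 8.79 in E434 and 7.62 in E433, against 4.34 to 5.45 in the other libraries. The covariate thus mainly followed the libraries that stand apart, and the p-values rest in part on the spread within the close pairs. The fit called 265 of 26596 genes.

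As a check of the label, 14 further genes of osteocytes and their surroundings were examined. Dmp1, a matrix protein of young osteocytes, stood at 51.8, 40.9 and 49.1 CPM in controls and at 10.8, 3.80 and 10.2 CPM in mutants (log2 fold change -2.51, adjusted p = 0.155, edgeR). Mepe, a product of mature osteocytes, had only 10, 14 and 7 counts in the controls and 28, 8 and 23 in the mutants. Fgf23 was likewise near 0, whereas Sost, another product of mature osteocytes, had 156 to 319 counts in controls and 60 to 130 in mutants. Dmp1 and Phex, also known from osteoblasts, were readily detected, and whole rib cage RNA does not place the 6 genes in a cell type. Tnfsf11, which encodes the osteoclast-inducing ligand RANKL, stood at 3.64, 4.76 and 3.65 CPM in controls and 1.44, 0.858 and 1.19 CPM in mutants (-1.78, adjusted p = 0.145, edgeR). Of the 14 genes, edgeR called 0. An unadjusted p under 0.05 was reached by 4, each lower in mutants, against 4.7% of all genes tested, and DESeq2 called 2 lower, against 0.459%. In 4 of the 14 all mutants lay below all controls, against 8.21% of all genes, and in the rest the groups overlapped. The median log2 fold change was -0.28, with 10 of 14 below 0, against 48.8% of all genes.

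The partners of the 6 genes were examined by role. In the phosphate axis, which holds FGF receptors, the co-receptor Kl, vitamin D genes and phosphate transporters, 16 of 19 genes were tested, with a median log2 fold change of -0.23. EdgeR called 0 (4 had an unadjusted p under 0.05) and DESeq2 called 1 lower, Vdr. Vdr, the vitamin D receptor, stood at 17.6, 22.7 and 19.8 CPM in controls and at 8.61, 4.76 and 8.80 CPM in mutants. All mutants were below all controls, and the log2 fold change was -1.44 (standard error 0.254, adjusted p = 0.202, edgeR). Pth1r, the receptor of parathyroid hormone, and Xpr1, a phosphate exporter, had values of -0.46 and -0.47 with the groups apart (adjusted p = 0.389 and 0.425, edgeR). The phosphate transporter Slc34a2 stood at 2.88, 0 and 3.01 CPM in controls and at 45.2, 2.81 and 44.2 CPM in mutants, so that E433 alone of the mutants lay within the control range. Its log2 fold change was 3.97, the largest of the list (95% interval 0.38 to 7.56, unadjusted p = 0.0350, adjusted p = 0.442, edgeR). The summed keratinocyte genes, at 5671, 20.3 and 6421 CPM in controls and 27608, 3322 and 27744 CPM in mutants, were likewise lowest in E434 and E433 within their groups. A link between these genes and Slc34a2 was not tested. Fgfr1 and Kl, the receptor pair of FGF23, had log2 fold changes of -0.25 and 0.47 (adjusted p = 0.660 and 0.649, edgeR), and Galnt3, which protects FGF23 from cleavage, -0.50 (adjusted p = 0.512, edgeR). Cyp24a1, Slc34a1 and Slc34a3 had at most 3 counts in any library.

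On the side of osteocrin, Npr3, the clearance receptor that binds it, was higher in every mutant: it stood at 12.5, 11.9 and 12.9 CPM in controls and at 19.5, 17.3 and 21.8 CPM in mutants. The difference of 0.65 on the log2 scale (standard error 0.117, adjusted p = 0.206, edgeR) was below the limit on size, in DESeq2 as well (0.66, adjusted p = 0.000321). Nppc, which encodes C-type natriuretic peptide, the growth plate ligand cleared by the same receptor, had a log2 fold change of -0.59 with the groups apart (adjusted p = 0.390, edgeR). Npr2, the signaling receptor of that peptide, had -0.15 (adjusted p = 0.810, edgeR). Of 9 genes in this list 8 were tested, neither tool called any, and 2 had an unadjusted p under 0.05 in edgeR; the median was -0.08.

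For sclerostin, the receptors Lrp4, Lrp5 and Lrp6 had log2 fold changes of 0.07, -0.35 and -0.22 (adjusted p = 0.860, 0.518 and 0.727, edgeR). Dkk1, another secreted Wnt inhibitor, had -0.76 with the groups apart (adjusted p = 0.260, edgeR). Sostdc1, the closest relative of Sost, had 1.12 with the groups overlapping (adjusted p = 0.451, edgeR), the 1 gene of this list that DESeq2 called higher (adjusted p = 0.0914). Of the 14 genes edgeR called 0 (3 had an unadjusted p under 0.05), and the median was 0.10.

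Among 6 other secretory kinases none was called by either tool, although all 6 log2 fold changes were below 0, with a median of -0.39 and 3 at an unadjusted p under 0.05 in edgeR. Fam20a, the pseudokinase partner of Fam20c, had -0.81 and Pkdcc, a skeletal tyrosine kinase, -0.54, both with the groups apart (adjusted p = 0.366 and 0.389, edgeR). Of 10 bone and tooth matrix genes, most of them known substrates of FAM20C, 8 were tested and 1 was called lower by edgeR, while DESeq2 called 4. The called gene was Ambn, which encodes the enamel matrix protein ameloblastin, with 26, 21 and 39 counts in controls and 2, 1 and 1 in mutants, at least 9.33-fold lower when 3 counts per library are taken as the floor (adjusted p = 0.0956, edgeR). Spp1, which encodes osteopontin, stood at 437, 499 and 470 CPM in controls and at 119, 27.3 and 124 CPM in mutants (log2 fold change -2.38, adjusted p = 0.303, edgeR). In 5 of the 8, against 8.21% of all genes tested, all mutants lay below all controls. The median was -1.95, or -1.22 with Ambn and Amtn at their bounds. Of those 5, Spp1, Ibsp and Bglap are also on the osteoblast list, and Dmp1 is among the further osteocyte genes above. Fam20c itself, in contrast, overlapped between the groups.

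The partners of podoplanin gave 0 calls in 9 genes by either tool, 1 unadjusted p under 0.05 in edgeR and a median of -0.03. Clec1b, the platelet receptor that binds podoplanin, had 20, 31 and 27 counts in controls and 2, 18 and 11 in mutants (log2 fold change -1.30, adjusted p = 0.515, edgeR). Cd44, a membrane partner, had -0.02 (adjusted p = 0.955, edgeR).

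**Figure D5:**
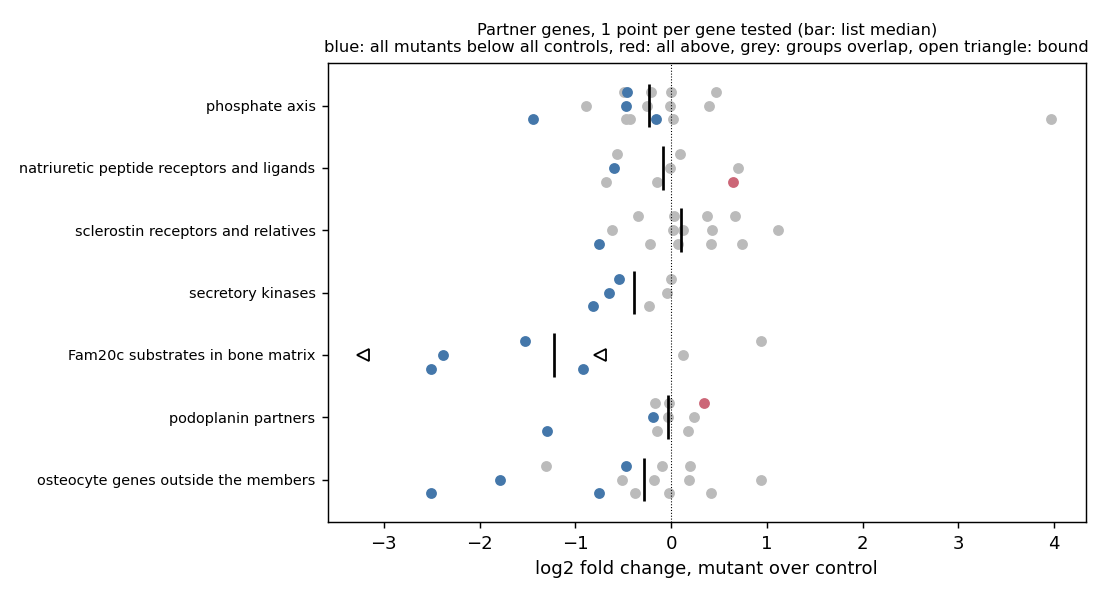
Log2 fold change (mutant over control) of each tested gene in 7 lists of partner genes, with the list median as a bar; blue points have all mutants below all controls, red points all above, grey points overlap, and open triangles are bounds for genes with 3 counts or fewer in every mutant. Medians lie between -0.39 and 0.10 except for the FAM20C substrates at -1.22, a list that shares genes with the osteoblast and osteocyte lists.

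To find the genes most like each member, the log2 ratio to the control mean was compared over the 6 libraries among 16563 genes with a mean of at least 1 CPM, with the root mean square difference as the measure. For Phex the nearest were Gm16332 (0.155) and Tnfsf11 (0.176), the RANKL gene described above. For Ostn they were Dmp1 (0.352), Wdr72 (0.407) and Gpnmb (0.475), further away than for the other genes. For Sost they were Kazald1 (0.179), the osteoblast transcription factor Sp7 (0.190) and the citrate transporter Slc13a5 (0.191). The nearest genes to Fam20c (Kif5a, 0.0566) and Pdpn (Ccne2, 0.0232) were those that likewise varied little. The likeness is a description over 6 libraries that fall into 2 groups.

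The 250 bases before the RefSeq start in GRCm38.p6 were available for 5 of the 6 genes, all but Ostn. They are shown for 4 genes in which a searched motif was found, and the motif is in capitals: CTTTAAAA, a TATA-like run chosen after the sequences were seen, or the forkhead motif TGTTTAC and its shorter core GTTTAC, which lies within it. Each is written 5′ to 3′ on the strand of the gene. Phex is from chrX:157415287-157415536 (minus strand), Sost from chr11:101967016-101967265 (minus strand), Fgf23 from chr6:127072652-127072901 (plus strand) and Pdpn from chr4:143299565-143299814 (minus strand).
Phex: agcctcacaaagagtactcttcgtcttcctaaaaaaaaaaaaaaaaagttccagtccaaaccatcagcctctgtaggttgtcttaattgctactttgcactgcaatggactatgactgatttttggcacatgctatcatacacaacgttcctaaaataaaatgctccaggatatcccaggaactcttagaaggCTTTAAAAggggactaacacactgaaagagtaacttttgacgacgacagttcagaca
Sost: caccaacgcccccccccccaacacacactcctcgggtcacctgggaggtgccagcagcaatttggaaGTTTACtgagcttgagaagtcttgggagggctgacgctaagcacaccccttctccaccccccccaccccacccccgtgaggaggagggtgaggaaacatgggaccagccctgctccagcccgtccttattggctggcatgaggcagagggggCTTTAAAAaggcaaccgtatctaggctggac
Fgf23: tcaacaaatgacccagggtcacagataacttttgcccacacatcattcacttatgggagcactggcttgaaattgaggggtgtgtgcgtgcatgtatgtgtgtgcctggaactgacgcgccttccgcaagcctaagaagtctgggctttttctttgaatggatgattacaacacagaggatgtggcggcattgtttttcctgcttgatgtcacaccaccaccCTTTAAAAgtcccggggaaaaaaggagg
Pdpn: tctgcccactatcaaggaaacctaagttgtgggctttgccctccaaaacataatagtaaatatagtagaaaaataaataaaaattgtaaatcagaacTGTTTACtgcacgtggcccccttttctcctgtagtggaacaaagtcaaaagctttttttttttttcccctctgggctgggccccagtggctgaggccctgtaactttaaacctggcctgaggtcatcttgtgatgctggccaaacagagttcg
CTTTAAAA began 57 bases before the start of Phex, 31 before that of Sost and 28 before that of Fgf23, and on both strands it was found in 2.36% of 32851 mouse windows of this length. TGTTTAC, the DNA element read by many forkhead factors, was found 153 bases before the start of Pdpn and in 3.17% of windows, and GTTTAC in addition 183 bases before Sost and in 6.92% of windows. TGTGGTT, a Runx motif, was in 0 of the 5 windows and in 4.40% of all. The window of Fam20c was 81.2% G and C, against 39.2% for Phex and a median of 52.4% over all windows. It spans chr5:138754831-138755080 on the plus strand, within the GENCODE interval of the gene, which begins at 138754514. It is thus upstream of the RefSeq start but not of the GENCODE start. Phex, which fell, and Fgf23, which was near 0, thus share the first motif, and the forkhead motif was found beside Pdpn, which did not pass the test; a match in letters does not show that a factor binds.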

How the data were processed

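Stranded, paired-end mRNA libraries of 6 rib cages were sequenced. The authors aligned reads to GRCm38 with HISAT2 2.1.0 and deposited counts per gene from featureCounts 1.6.0 on GENCODE vM25 (per the file header), whose command counts the reads of a pair singly and unstranded and drops those that match several genes or places. Expected counts and TPM were likewise deposited by the authors, from STAR 2.7.6 and RSEM 1.2.31. Versions come from the submitters' processing notes. Tables of the authors' DESeq2 1.26.0 comparisons hold log2 fold changes and adjusted p-values, and neither these nor the 12 per-sample columns beside them were used.

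Symbols came from GENCODE M21 on GRCm38 (55141 of 55487 gene IDs). Counts were scaled by TMM, and genes with at least 10 counts over the 6 libraries were tested with edgeR 4.0.16 (glmQLFit and glmQLFTest, R 4.3.3), without covariates. Limits were 0.1 on the Benjamini-Hochberg adjusted p and 1 on the log2 fold change. DESeq2 1.42.0 (Wald test), other scaling and filters, rounded expected counts, covariates and left-out libraries were alternatives. Log2 CPM used a prior count of 2. Single values were compared by 2-sided exact permutation tests. P-values measure the spread between these embryos, and without E434 and E433 only the spread within the close pairs. Without E433 alone the mutants are a close pair, and without E434 alone the controls are. Bounds (3 counts) cover counting error only.

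The members, lists and tests were chosen with earlier results of these data known. Besides the members, Foxc1 and Foxc2, genes could be named if on a list (those past the limits, then those with the lowest p, first) or among the 3 genes nearest to a member. Xist was named outside this rule, and 1 gene that the rule would name is not reported here. On simulated data of 22631 genes, 200 of them changed by 2 on the log2 scale, edgeR found 180 (24 false calls) and DESeq2 173 (51 false calls). The simulated libraries were independent, with the same dispersion for all genes, and held no close pairs or libraries that stand apart. They check that the code runs as meant, and do not give the error rate of either tool on these data.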

Additional observations from a re-analysis of the deposited data

How the results depend on the processing

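No paired analysis was possible because the embryo numbers differ between the groups and name no litter, although the study states that littermates were compared. Leaving out 1 library at a time, the log2 fold change ran from -1.79 to -1.59 for Phex, -2.88 to -2.50 for Ostn, -1.56 to -1.07 for Sost, 0.00080 to 1.24 for Fgf23, -0.28 to 0.052 for Fam20c and -0.31 to -0.17 for Pdpn. The calls of Phex and Ostn held in 2 of these 6 fits (without E434 or E433) and in 8 of 9 other alternatives, and the number of the 6 genes called lower ran from 0 to 3. It was 0 at an adjusted p under 0.05, and 0 with E420 and E435, and E423 and E440, summed (an alternative added after seeing the data, 769 genes at an unadjusted p under 0.05, DESeq2 not run), where the log2 fold changes were -1.73 and -2.81. Fam20c changed sign without E434 (0.052), without E434 and E433 (0.10) and with the osteoblast covariate (0.18).

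Over all genes, 8 lower and 9 higher became 122 and 355 with DESeq2, 15 and 22 with no count filter, 5 and 5 on RSEM expected counts, 648 and 1418 without E434 and E433, 71 and 194 with the chondrocyte covariate, 420 and 814 with the osteoblast covariate, 14 lower with no fold limit, and 0 and 0 at an adjusted p under 0.05 or with close libraries summed. With 1 library left out they ran from 0 to 353 lower and from 0 to 734 higher.

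In the phosphate axis, 1 gene was called lower with DESeq2, and 1 lower and 1 higher without E434 and E433 and with either covariate; with 1 library out, 0 to 1 were lower and 0 to 1 higher. In the natriuretic list 1 was lower without E434 and E433, and 0 to 1 with 1 library out. In the sclerostin list 1 was lower and 1 higher without E434 and E433 and with the osteoblast covariate, and 1 higher with DESeq2; with 1 library out, 0 to 1 were higher. Of the secretory kinases 1 was lower with the osteoblast covariate. Of the FAM20C substrates, 4 were lower with DESeq2 and without E434 and E433 (1 higher), 3 with the chondrocyte covariate, 2 with no filter, and 0 on RSEM counts, with the osteoblast covariate, with close libraries summed and at an adjusted p under 0.05; with 1 library out, 0 to 4. Of podoplanin partners 1 was lower without E434 and E433. Of the other osteocyte genes, 2 were lower with DESeq2, no filter or the chondrocyte covariate, 3 lower and 1 higher without E434 and E433, and 1 higher with the osteoblast covariate; with 1 library out, 0 to 2 were lower. With 1 library out, the highest of each range of counts came without E433. The cause of these changes was not tested. Depth limits Fgf23, with at most 10 counts in a library.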
